A study of Mus musculus with 12 samples.

Results

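Mouse primary neural stem cells labelled Chd5-/- were compared with wild-type cells 48 h after the start of differentiation. The libraries were chosen by the genotype and time in the labels, 3 labelled Chd5-/- and 3 of wild type, 6 of the 12 libraries in the series; the other 6 are the same genotypes at 3 h. Per the labels, all cells grew with the growth factors EGF and FGF2 before neurobasal medium with B-27 took their place. The question of the series is how loss of Chd5 alters expression while neural stem cells differentiate. The labels give no strain, age or sex and leave the deleted stretch of Chd5 unnamed. They tie no replicate number to an animal, culture or line of its own, so the p-values cover only the spread among these samples, which may be technical.

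Chd5 encodes a chromodomain helicase of the family that supplies the remodelling ATPase of NuRD, a complex that couples nucleosome remodelling to histone deacetylation. The gene is known from brain and testis and has been described as a tumour suppressor. Neural stem cells divide while growth factors are present and, after their withdrawal, leave the cell cycle and can give rise to astrocytes, oligodendrocytes and neurons.

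The 3 libraries labelled Chd5-/- held between 14.12 and 14.48 M estimated reads and the 3 of wild type between 14.48 and 16.11 M. Levels are CPM on TMM-scaled library sizes, fold changes are log2 values with their SE, and values of a group are given in the order of replicates 1, 2 and 3. Of Chd5 itself (ENSMUSG00000005045, chromosome 4, 152338651 to 152390194, GRCm38), 189 reads lay in libraries labelled Chd5-/- and 307 in those of wild type. Its level was 5.7, 3.34 and 2.96 CPM in libraries labelled Chd5-/- and 6.59, 7.15 and 5.28 CPM in wild type, and the groups overlapped (log2 fold change -0.66 ± 0.31, adjusted p = 0.467). Per length the order turned round, with 2.56, 3.88 and 2.60 TPM in libraries labelled Chd5-/- and 0.624, 0.495 and 0.519 TPM in wild type, since the reads lay in transcripts of other effective length. The level does not show a loss, so "labelled Chd5-/-" refers to the deposited genotype.

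Replicate 2 of both genotypes stood apart from replicates 1 and 3. Mki67, a marker of dividing cells, stood at 15.7, 268 and 18.2 CPM in libraries labelled Chd5-/- and 19.1, 417 and 20.2 CPM in wild type, and Top2a, a topoisomerase of dividing cells, at 46.3, 747 and 49.4 CPM in libraries labelled Chd5-/- and 38.2, 612 and 44.7 CPM in wild type. Replicates 1 and 3 of a group differed by a chi-square per gene of 1.79 in libraries labelled Chd5-/- and 1.96 in wild type, where counting alone gives about 1, and either differed from replicate 2 by 135 or more. Deviations from the group mean also ran together between genotypes, with correlations of 0.70, 0.79 and 0.70 over genes for pairs 1, 2 and 3. Replicates 1 and 3 correlated as highly across numbers (0.71 and 0.72). The values thus show replicate 2 apart in both genotypes and do not tie replicate 1 or 3 to a partner. The fit with the replicate number as a block is given wherever it changes a call or moves a count by over 1.5 times. Values with an adjusted p and the words "with the block" are log2 fold changes of that fit. The stem cell genes Nes, Sox2, Fabp7, Vim and Slc1a3 stood at 73.4 CPM or more in all 6 libraries, while Prom1 stayed between 0.310 and 0.674 CPM. The microglial genes Aif1, Cx3cr1, Csf1r and Ptprc stayed at 0.248 CPM or less, Cdh5, Pdgfrb and Lum at 0.135 CPM or less, and Ttr had 0 reads. Other markers of non-neural cells and ependyma were present: Foxj1, a factor gene of ciliated cells, stood at 8.21 to 30.2 CPM over the 6 libraries, the smooth muscle actin gene Acta2 at 0.270 to 10.5 CPM, Col1a1 at 1.95 to 4.65 CPM, Col3a1 at 0 to 3.71 CPM, Myh11 at 0.200 to 3.29 CPM and the endothelial receptor gene Kdr at 0.601 to 2.02 CPM.

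Differences between genotypes were large in few genes. Of 16043 genes tested, 440 passed edgeR's quasi-likelihood test (2.74%; Benjamini-Hochberg adjusted p under 0.05), 246 as higher (1.53%) and 194 as lower (1.21%) in libraries labelled Chd5-/-. Of the 440, 427 differed at least 2-fold and 198 at least 8-fold (126 higher and 72 lower), with a median size of 2.79 on the log2 scale, while the median over all genes tested was -0.02. The groups did not overlap for any of the 440, against 23.2% of all genes tested. In bulk RNA, fewer cells that express a gene and less RNA per cell cannot be told apart.

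The number that passed rested on single libraries. It was 217, 397 and 192 without replicate 1, 2 or 3 labelled Chd5-/-, and 218, 503 and 223 without replicate 1, 2 or 3 of wild type; 153 of the 440 (103 higher and 50 lower) passed in all 6 of these fits. With the replicate number as a block, 1319 genes passed (8.22%), 649 higher (4.05%) and 670 lower (4.18%); 384 of the 440 kept their call and direction. With replicate 2 of both genotypes omitted, 810 passed (5.05%), 400 higher (2.49%) and 410 lower (2.56%), and 375 of the 440 kept call and direction. Counts of list members below stand beside these shares of all genes tested, 2.74% in the main fit and 8.22% with the block.

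**Figure D1:**
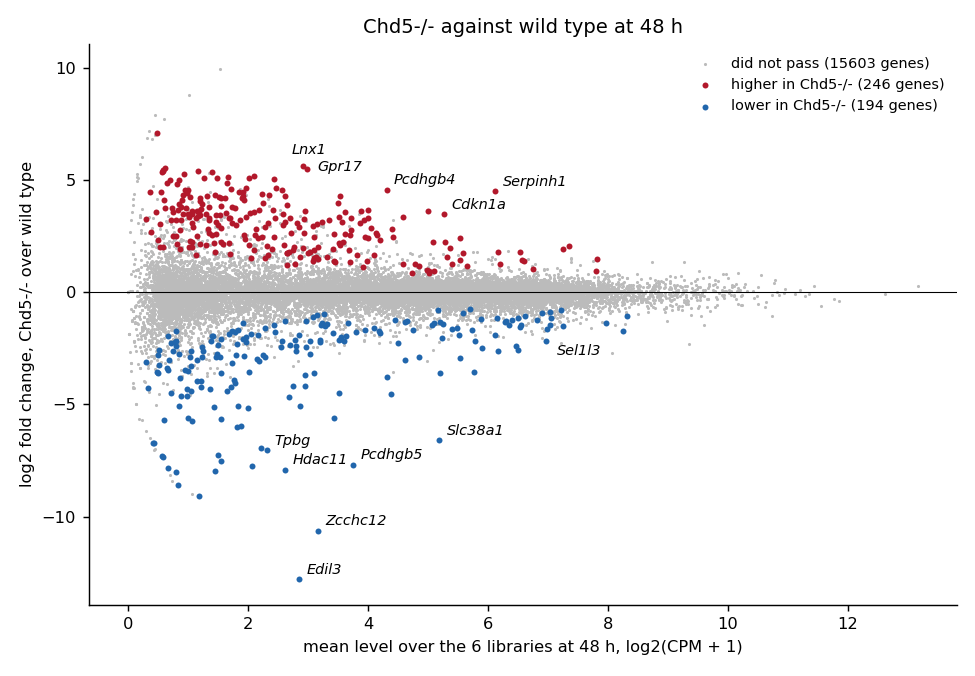
Difference between genotypes at 48 h against level. Each point is 1 of 16043 genes, the x axis is the mean level over the 6 libraries in log2(CPM + 1) and the y axis the log2 fold change of Chd5-/- over wild type; the 246 genes that passed as higher are red and the 194 that passed as lower are blue, with the largest falls in Edil3 and Zcchc12.

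Several genes were nearly silent in libraries labelled Chd5-/- and plainly expressed in wild type. Edil3 (ENSMUSG00000034488, chromosome 13, 88821472 to 89323223), which encodes a secreted integrin ligand of the extracellular matrix, had 0, 0 and 0 CPM in libraries labelled Chd5-/- and 39.7, 85.7 and 39.7 CPM in wild type (at least 862-fold lower, adjusted p = 0.0066, against a floor of 3 counts over the group). Zcchc12 (ENSMUSG00000036699, chromosome X, 36195904 to 36199158), a transcriptional coactivator gene of the brain, had 0.124, 0 and 0 CPM in libraries labelled Chd5-/- and 62.5, 115 and 61.9 CPM in wild type. Zcchc12 fell (1870-fold, 95% counting interval 519 to 15500, adjusted p = 9.81e-05). Hdac11 (ENSMUSG00000034245, chromosome 6, 91156665 to 91174692), the class IV histone deacetylase gene, had 0, 0.134 and 0.252 CPM in libraries labelled Chd5-/- and 30, 35.3 and 32.1 CPM in wild type. Hdac11 fell (log2 fold change -7.9 ± 0.86, adjusted p = 0.000947). In each of these 3 genes all wild-type libraries were high, replicate 2 the highest, and all libraries labelled Chd5-/- lay at or near 0.

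In all, 6 genes had 0 to 3 reads over the 3 libraries labelled Chd5-/- and a mean of 5 CPM or more in wild type. Pitpnm1, a phosphatidylinositol transfer protein gene, had 0.0619, 0.0668 and 0.0631 CPM in libraries labelled Chd5-/- and 15.3, 16.9 and 14.2 CPM in wild type, so its wild-type level hardly differed between replicates (242-fold lower, 95% counting interval 82.9 to 1170, adjusted p = 4.56e-05). Fgl2, Minar2 and Nynrin differed between wild-type replicates: each lay at 9.65 CPM or more in replicates 1 and 3 and at 2.63 CPM or less in replicate 2, against at most 0.0668 CPM in any library labelled Chd5-/-.

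Other genes also fell to a low level, several of them nearly silent. Over the 3 libraries labelled Chd5-/-, Tpbg, Lrrc17 and Ctsz had 7 reads each and Nqo1 and Gap43 had 8 each. The amino acid transporter gene Slc38a1 had 3.28, 4.34 and 2.21 CPM in libraries labelled Chd5-/- and 295, 355 and 305 CPM in wild type. Slc38a1 fell (log2 fold change -6.6 ± 0.42, adjusted p = 4.56e-05). Tpbg, which encodes a membrane protein that inhibits Wnt signalling, had 0.124, 0.20 and 0.126 CPM in libraries labelled Chd5-/- and 18.4, 25.4 and 18.6 CPM in wild type. Tpbg fell (log2 fold change -7.05 ± 0.41, adjusted p = 4.56e-05). Nqo1, a quinone reductase gene and target of NRF2, had 0.31, 0.0668 and 0.126 CPM in libraries labelled Chd5-/- and 12.8, 7.28 and 12.8 CPM in wild type. Nqo1 fell (log2 fold change -5.95 ± 0.52, adjusted p = 0.000208). None of the 3 had a wild-type library under 7.28 CPM or a library labelled Chd5-/- over 4.34 CPM. Lrrc17, a secreted leucine-rich repeat protein gene (log2 fold change -6.02 ± 0.48, adjusted p = 0.000106), the lysosomal protease gene Ctsz (log2 fold change -6.94 ± 0.95, adjusted p = 0.0036), Gap43, which encodes a growth cone protein (log2 fold change -5.64 ± 0.99, adjusted p = 0.0129), and Mdfi, an inhibitor of myogenic transcription factors (log2 fold change -5.17 ± 0.85, adjusted p = 0.00887), fell as well. Gap43 stood at 0, 0.401 and 0.126 CPM in libraries labelled Chd5-/- and 3.66, 20.4 and 2.84 CPM in wild type, so its wild-type level was highest in replicate 2. Gap43 did not pass when replicate 1 or 3 labelled Chd5-/- was left out (adjusted p = 0.0501 to 0.0735). Mdfi did not pass when replicate 3 labelled Chd5-/- was left out (adjusted p = 0.0539).

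Genes higher in libraries labelled Chd5-/- were seldom at 0 in wild type. Lnx1 (ENSMUSG00000029228, chromosome 5, 74592447 to 74702912), which encodes an E3 ubiquitin ligase that binds the Notch regulator NUMB, had 25.1, 54.1 and 25 CPM in libraries labelled Chd5-/- and 0.794, 0.944 and 0.398 CPM in wild type. Lnx1 rose (log2 fold change 5.6 ± 0.64, adjusted p = 0.00118). Gpr17 (ENSMUSG00000052229, chromosome 18, 31942997 to 31949636), a receptor gene of committed oligodendrocyte precursors, had 34.1, 34.6 and 34.8 CPM in libraries labelled Chd5-/- and 0.977, 0.539 and 0.738 CPM in wild type. Gpr17 rose (log2 fold change 5.5 ± 0.41, adjusted p = 7.24e-05). Its libraries labelled Chd5-/- lay within 1 CPM of each other, replicate 2 included. Serpinh1, the collagen chaperone HSP47, had 224, 644 and 222 CPM in libraries labelled Chd5-/- and 10.2, 28.1 and 9.94 CPM in wild type (log2 fold change 4.5 ± 0.56, adjusted p = 0.00199), with replicate 2 high in both genotypes.

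Several further genes stood near 0 in wild type and higher in libraries labelled Chd5-/-. Cadps2, which acts in dense-core vesicle release, had 4.33, 13.9 and 6.06 CPM in libraries labelled Chd5-/- and 0.244, 0.27 and 0.454 CPM in wild type. Cadps2 rose (log2 fold change 4.61 ± 0.50, adjusted p = 0.000947). Ank3, which encodes the ankyrin-G scaffold of the axon initial segment (log2 fold change 4.56 ± 0.45, adjusted p = 0.000541), the receptor phosphatase gene Ptprt (log2 fold change 4.64 ± 0.50, adjusted p = 0.000947) and Kctd4 (log2 fold change 5.16 ± 0.55, adjusted p = 0.000947) rose too. Tubg2, the gamma-tubulin gene of brain, had 5.64, 4.47 and 5.68 CPM in libraries labelled Chd5-/- and 0.0611, 0.135 and 0.17 CPM in wild type. Tubg2 rose (log2 fold change 5.34 ± 0.46, adjusted p = 0.00075). Smim20, a mitochondrial assembly factor gene, had 7.55, 11.3 and 7.06 CPM in libraries labelled Chd5-/- and 0.672, 0.202 and 0.284 CPM in wild type. Smim20 rose (log2 fold change 4.45 ± 0.45, adjusted p = 0.000701). All 6 of these genes stood at 1.16 CPM or less in each wild-type library.

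**Figure D2:**
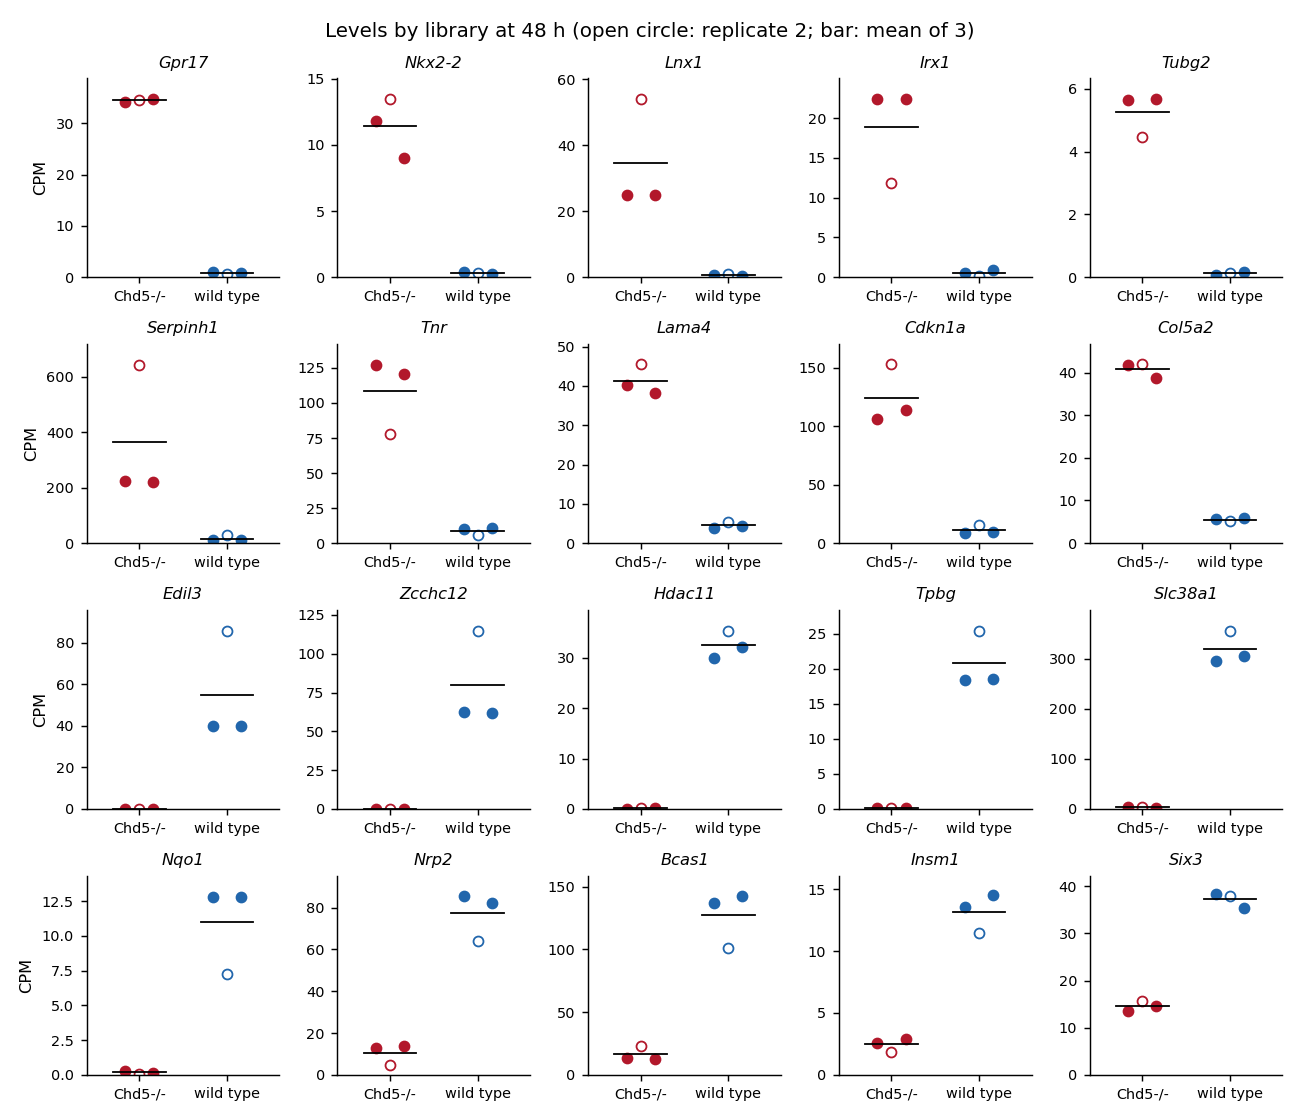
Levels of 20 genes by library at 48 h, in CPM on linear axes from 0. Each point is 1 library, Chd5-/- left in red and wild type right in blue, open circles are replicate 2 and bars are means of 3; the groups do not overlap in any panel, and replicate 2 stands apart in Serpinh1, Zcchc12 and Edil3 among others.

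Promoter sequences are printed for 4 of these genes, 2 that were nearly silent and 2 that were higher, so that the regions can be read beside the levels. They are RefSeq sequences of GRCm38.p6, 250 bases before to 50 after the start of the gene in RefSeq, 5′ to 3′ on the gene's strand, with CG dinucleotides in capitals. RefSeq starts can differ from those of GENCODE, from which the gene coordinates are taken: the Nkx2-2 window lies inside the GENCODE gene, and the Hdac11 window reaches past the GENCODE start by more than its last 50 bases.
Zcchc12, chromosome X, 36195654 to 36195953, plus strand: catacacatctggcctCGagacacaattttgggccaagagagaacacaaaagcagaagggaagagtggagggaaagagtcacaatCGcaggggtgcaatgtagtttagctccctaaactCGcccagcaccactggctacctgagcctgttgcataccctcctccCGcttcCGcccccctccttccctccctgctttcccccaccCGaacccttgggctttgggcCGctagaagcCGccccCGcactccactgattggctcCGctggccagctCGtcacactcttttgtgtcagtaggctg
Hdac11, chromosome 6, 91156565 to 91156864, plus strand: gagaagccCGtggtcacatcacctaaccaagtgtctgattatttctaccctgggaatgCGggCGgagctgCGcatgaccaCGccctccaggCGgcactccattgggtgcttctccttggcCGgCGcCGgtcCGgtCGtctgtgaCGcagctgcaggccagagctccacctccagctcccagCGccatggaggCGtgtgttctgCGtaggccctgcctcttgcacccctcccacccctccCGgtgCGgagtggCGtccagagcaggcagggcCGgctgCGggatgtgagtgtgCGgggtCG
Nkx2-2, chromosome 2, 147186353 to 147186652, minus strand: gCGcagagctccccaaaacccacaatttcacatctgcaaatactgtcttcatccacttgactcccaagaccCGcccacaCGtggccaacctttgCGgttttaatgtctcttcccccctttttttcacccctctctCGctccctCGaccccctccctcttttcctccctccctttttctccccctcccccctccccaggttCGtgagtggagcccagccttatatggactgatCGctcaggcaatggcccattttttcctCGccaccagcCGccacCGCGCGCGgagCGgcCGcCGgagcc
Lnx1, chromosome 5, 74702854 to 74703153, minus strand: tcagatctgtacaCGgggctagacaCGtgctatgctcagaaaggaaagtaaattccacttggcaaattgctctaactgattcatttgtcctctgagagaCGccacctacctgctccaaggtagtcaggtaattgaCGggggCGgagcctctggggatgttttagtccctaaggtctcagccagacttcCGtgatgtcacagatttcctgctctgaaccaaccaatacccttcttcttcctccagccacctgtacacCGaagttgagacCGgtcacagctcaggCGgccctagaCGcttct
They hold 11, 22, 17 and 10 CG dinucleotides. The median was 17 over the 161 genes that passed as higher and had a window, and 17 over the 124 that passed as lower, against 22 over the 11042 genes tested with a window. The counts are a description of these windows.

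Among lineage genes, Nkx2-2, Gpr17 and Pdgfra of oligodendrocyte precursors were higher and the neurogenic factor Insm1 was lower. Of 13 oligodendrocyte lineage markers tested, 3 rose and 1 fell (30.8%, against 2.74% of all genes tested). The other 9 did not pass, and the median log2 fold change of the 13 was 0.72. Nkx2-2 (ENSMUSG00000027434, chromosome 2, 147177546 to 147194243), a transcription factor gene of ventral progenitors and oligodendrocyte precursors, had 11.8, 13.5 and 9.02 CPM in libraries labelled Chd5-/- and 0.366, 0.337 and 0.284 CPM in wild type. Nkx2-2 rose (log2 fold change 5.09 ± 0.31, adjusted p = 9.23e-05). Pdgfra, the growth factor receptor gene of oligodendrocyte precursors, had 53.9, 21.3 and 50.8 CPM in libraries labelled Chd5-/- and 8.0, 4.92 and 8.41 CPM in wild type (log2 fold change 2.56 ± 0.54, adjusted p = 0.0301), and its level in replicate 2 was the lowest of each group. Bcas1, a gene of early myelinating cells, went the other way, at 13.6, 22.7 and 12.9 CPM in libraries labelled Chd5-/- and 137, 101 and 143 CPM in wild type. Bcas1 fell (log2 fold change -2.95 ± 0.27, adjusted p = 0.000299). Cspg4, which encodes the precursor proteoglycan NG2, passed only with the block (1.55, adjusted p = 0.0089; without it 1.47, adjusted p = 0.152). The oligodendrocyte factor gene Sox10 stayed at 0.31, 0.467 and 0.252 CPM in libraries labelled Chd5-/- and 0, 0 and 0.0568 CPM in wild type, and Olig1 and Olig2 did not pass. Pdgfra did not pass when replicate 1 or 3 labelled Chd5-/- or replicate 1, 2 or 3 of wild type was left out (adjusted p = 0.0833 to 0.116).

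Of 18 astrocyte markers, 0 rose and 1 fell (5.56%, against 2.74% of all genes tested), with a median of 0.35. Pairs 1, 2 and 3 had 13, 11 and 13 of the 18 higher. How many of all genes tested were higher in each pair was not counted. S100b had 150, 72.6 and 155 CPM in libraries labelled Chd5-/- and 51.1, 6.14 and 50 CPM in wild type (adjusted p = 0.281). Gfap had 448, 24.8 and 442 CPM against 269, 1.01 and 280 CPM, and Aldh1l1 32.9, 7.68 and 32.8 CPM against 19.5, 1.75 and 20.7 CPM. These genes were higher in each pair. Sparcl1, of the same list, was lower in each pair and did not pass (edgeR adjusted p = 0.297). It had 1513, 647 and 1509 CPM in libraries labelled Chd5-/- and 2243, 3285 and 2242 CPM in wild type. Only Aqp4 passed as lower. Aqp4, the astrocyte water channel gene, had 5.51, 4.81 and 5.42 CPM in libraries labelled Chd5-/- and 97.2, 26 and 94.6 CPM in wild type (log2 fold change -3.79 ± 0.63, adjusted p = 0.0098), and its wild-type level was lowest in replicate 2. With the block, 3 rose and 2 fell, among them the bicarbonate cotransporter gene Slc4a4 (1.05, adjusted p = 0.018), and the glutamine synthetase gene Glul (0.93, adjusted p = 0.0156), both higher, and the neurotensin receptor gene Ntsr2, lower (-1.44, adjusted p = 0.00773). Glul had 1440.4, 509 and 1405 CPM in libraries labelled Chd5-/-, against 753, 266 and 746 CPM in wild type, so replicate 2 was the lowest of each genotype and the difference held within each pair. Aqp4 did not pass when replicate 3 labelled Chd5-/- was left out (adjusted p = 0.0529).

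Of 18 neural stem cell and radial glia markers, 0 passed in edgeR, 5 had an unadjusted p under 0.05, limma-voom called 0 and DESeq2 called 1 higher and 1 lower. With the block, 2 rose and 3 fell, among them Fabp7, a fatty acid binding protein gene of radial glia (0.9, adjusted p = 0.0274), and Gli3, a repressor of Hedgehog signalling in progenitors (-1.36, adjusted p = 0.0215). Among 12 proneural and neurogenic factors, 1 fell (8.33%, against 2.74% of all genes tested). Insm1 (ENSMUSG00000068154, chromosome 2, 146221921 to 146225020), a zinc finger factor gene of neurogenic progenitors, had 2.6, 1.87 and 2.9 CPM in libraries labelled Chd5-/- and 13.6, 11.5 and 14.5 CPM in wild type. Insm1 fell (log2 fold change -2.42 ± 0.38, adjusted p = 0.00745). With the block 4 fell, among them the neuronal differentiation factor genes Neurod1 (-2.68, adjusted p = 0.0245) and Neurod4 (-4.53, adjusted p = 0.0398), both under 6 CPM in every library. The median of the 12 was -0.68 and -0.71 in pairs 1 and 3 and 0.03 in pair 2.

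Genes of young and mature neurons moved in both directions. Of 17 cytoskeletal and RNA-binding markers of young neurons 1 fell, Gap43, and with the block 3 rose and 2 fell, among them the microtubule regulator Stmn3, higher (1.78, adjusted p = 0.0301), and Dpysl3, a growth cone protein gene, lower (-0.79, adjusted p = 0.0354). The neuronal gene Stmn2 had 0 reads in libraries labelled Chd5-/- and 1.22, 0 and 1.48 CPM in wild type. With 46 reads in all, Stmn2 was not tested. Map2 was higher in each pair, at 1095, 702 and 1115 CPM in libraries labelled Chd5-/- and 668, 533 and 693 CPM in wild type. In pairs 1 and 3, Dcx was higher and Tubb3 and Rbfox3 were lower. Of 23 synaptic genes, Rims1, which encodes a protein of the presynaptic active zone, rose (log2 fold change 3.76 ± 0.62, adjusted p = 0.00955), and Nlgn3, a postsynaptic adhesion gene, fell (log2 fold change -1.89 ± 0.30, adjusted p = 0.00754). Nlgn3 had 3.03, 3.14 and 3.28 CPM in libraries labelled Chd5-/- and 13.7, 8.09 and 13.3 CPM in wild type, so the groups lay well apart. In the main fit 8.7% of the synaptic list passed, against 2.74% of all genes tested. With the block 4 synaptic genes rose and 1 fell, where 8.22% of all genes tested passed. Rims1 did not pass when replicate 1 or 3 of wild type was left out (adjusted p = 0.0563 to 0.0565).

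Of 27 voltage-gated and potassium channel genes, 2 fell (7.41%, against 2.74% of all genes tested). Cacna1a, the P/Q calcium channel gene, had 0.681, 0.134 and 0.631 CPM in libraries labelled Chd5-/- and 11.2, 2.83 and 10.5 CPM in wild type. Cacna1a fell (log2 fold change -4.05 ± 0.71, adjusted p = 0.0129). Kcna2, a potassium channel gene of axons, had 70.3, 60.6 and 69.9 CPM in libraries labelled Chd5-/- and 141, 135 and 142 CPM in wild type. Kcna2 fell (log2 fold change -1.06 ± 0.19, adjusted p = 0.0159). Of 18 glutamate and GABA receptor subunits 1 rose, the kainate receptor gene Grik1, at 0.743, 1.14 and 0.568 CPM in libraries labelled Chd5-/- and 3 reads in all of wild type (13.3-fold higher, 95% counting interval 4.54 to 64.3, adjusted p = 0.0316). With the block the channel list had 5 higher and 3 lower, and the receptor list 3 higher and 5 lower. The serotonin receptor gene Htr3a, which belongs to none of the lists and is named for its small p after the values were seen, had 12.3, 8.88 and 9.02 CPM in libraries labelled Chd5-/- and 113, 131 and 119.5 CPM in wild type. Htr3a fell (log2 fold change -3.59 ± 0.24, adjusted p = 4.56e-05). Cacna1a did not pass when replicate 3 labelled Chd5-/- was left out (adjusted p = 0.0569). Kcna2 did not pass when replicate 1 or 3 labelled Chd5-/- or replicate 1 or 3 of wild type was left out (adjusted p = 0.0601 to 0.0683). Grik1 did not pass when replicate 1, 2 or 3 labelled Chd5-/- or replicate 1, 2 or 3 of wild type was left out (adjusted p = 0.0667 to 0.142).

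Genes that mark position along the neural tube differed in both directions. Of 15 forebrain transcription factor genes, 1 rose and 1 fell (13.3%, against 2.74% of all genes tested). Six3, a factor of the anterior neural plate, had 13.5, 15.8 and 14.6 CPM in libraries labelled Chd5-/- and 38.5, 37.9 and 35.4 CPM in wild type (log2 fold change -1.35 ± 0.22, adjusted p = 0.00842), with no library between 15.8 and 35.4 CPM. Otx2, a factor of fore- and midbrain and of choroid plexus, had 0.743, 1.4 and 1.07 CPM in libraries labelled Chd5-/- and 2 reads in all of wild type (26.2-fold higher, 95% counting interval 7.25 to 216, adjusted p = 0.0151), and did not pass with the block (4.43, adjusted p = 0.0611). With the block 3 rose and 3 fell. Otx2 did not pass when replicate 3 of wild type was left out (adjusted p = 0.0626).

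Of 10 midbrain and hindbrain factors, 2 rose and 1 fell (30%, against 2.74% of all genes tested). Their median was 0.68, with 0.74, 0.73 and 0.74 in pairs 1, 2 and 3. Irx1 (ENSMUSG00000060969, chromosome 13, 71957921 to 71963723), an Iroquois homeobox gene, had 22.4, 11.8 and 22.4 CPM in libraries labelled Chd5-/- and 0.55, 0.202 and 0.909 CPM in wild type. Irx1 rose (log2 fold change 5.05 ± 0.59, adjusted p = 0.00125). Lmx1b, a LIM homeobox gene of hindbrain and midbrain neurons, had 13.6, 12.6 and 11.9 CPM in libraries labelled Chd5-/- and 3.85, 2.02 and 3.81 CPM in wild type. Lmx1b rose (log2 fold change 1.98 ± 0.29, adjusted p = 0.00567). En1, a gene of the midbrain-hindbrain boundary, had 0 reads in libraries labelled Chd5-/- and 1.59, 1.08 and 1.14 CPM in wild type (at least 19.8-fold lower, adjusted p = 0.0106; -7.36, adjusted p = 0.0571 with the block). With the block 5 rose and 0 fell, among them Irx3 (1.31, adjusted p = 0.0177) and En2 (1.39, adjusted p = 0.0458), a paralog of En1 that lay on the other side.

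Of 11 Hox genes, which set identity along the body axis, 3 rose and 1 fell (36.4%, against 2.74% of all genes tested). Hoxa4 had 12.2, 21.5 and 14.5 CPM in libraries labelled Chd5-/- and 5.31, 7.75 and 5.11 CPM in wild type. Hoxa4 rose (log2 fold change 1.41 ± 0.28, adjusted p = 0.0224). Hoxd4 and Hoxd8, neighbours in the HoxD cluster, lay between 1.05 and 3.28 CPM in libraries labelled Chd5-/- and had 3 and 1 reads in all of wild type (42.1-fold higher, 95% counting interval 14.4 to 204, adjusted p = 0.00805, and for Hoxd8 56.2-fold higher, 95% counting interval 10.1 to 2220, adjusted p = 0.0121). Hoxa7 had 21.4, 17.2 and 21 CPM in libraries labelled Chd5-/- and 65.9, 35.6 and 64.5 CPM in wild type (log2 fold change -1.48 ± 0.35, adjusted p = 0.0492), the opposite direction to Hoxa4 of the same cluster. Hoxa4 did not pass when replicate 2 or 3 labelled Chd5-/- or replicate 1 or 3 of wild type was left out (adjusted p = 0.0579 to 0.113). Hoxd8 did not pass when replicate 1 of wild type was left out (adjusted p = 0.0575). Hoxa7 did not pass when replicate 1, 2 or 3 labelled Chd5-/- or replicate 1 or 3 of wild type was left out (adjusted p = 0.145 to 0.176).

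Clustered protocadherins are cadherin-like proteins whose promoters are chosen by each neuron, and their transcripts share exons or are near-identical, so the split of reads between them is uncertain. Of 30 alpha and beta protocadherins, 4 rose and 0 fell (13.3%, against 2.74% of all genes tested), with a median of 1.59. With the block 16 rose and 3 fell, where 8.22% of all genes tested passed. Pcdhb5 had 45.3, 30.4 and 44.2 CPM in libraries labelled Chd5-/- and 10.4, 4.05 and 9.2 CPM in wild type. Pcdhb5 rose (log2 fold change 2.34 ± 0.39, adjusted p = 0.01). Pcdhb8 (log2 fold change 3.12 ± 0.65, adjusted p = 0.0292), Pcdha5 (log2 fold change 5.39 ± 1.10, adjusted p = 0.0266) and Pcdha11, with 0 reads in wild type (at least 17.1-fold higher, adjusted p = 0.0301; 7.11, adjusted p = 0.0651 with the block), rose as well. Pcdhb20 went against them, at 14.1, 13.7 and 12.7 CPM in libraries labelled Chd5-/- and 42.2, 41.9 and 40.8 CPM in wild type, and passed only with the block (-1.63, adjusted p = 0.00681; without it -1.62, adjusted p = 0.0757). Pcdhb8 did not pass when replicate 1 or 3 labelled Chd5-/- or replicate 1 or 3 of wild type was left out (adjusted p = 0.0744 to 0.104). Pcdha5 and Pcdha11 did not pass when replicate 1 or 3 labelled Chd5-/- or replicate 1, 2 or 3 of wild type was left out (adjusted p up to 0.109 and 0.0996).

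Of 21 gamma protocadherins, 3 rose and 1 fell (19%, against 2.74% of all genes tested), with a median of -0.30. Pcdhgb5 had 0.619, 0.868 and 0.189 CPM in libraries labelled Chd5-/- and 122, 117 and 111 CPM in wild type. Pcdhgb5 fell (log2 fold change -7.69 ± 1.20, adjusted p = 0.00742). Pcdhgb4, of the same cluster, had 102, 59.3 and 111 CPM in libraries labelled Chd5-/- and 5.01, 1.48 and 4.94 CPM in wild type. Pcdhgb4 rose (log2 fold change 4.57 ± 0.65, adjusted p = 0.0045). Pcdhgb7 (log2 fold change 3.66 ± 0.69, adjusted p = 0.0175) and Pcdhga6 (log2 fold change 3.05 ± 0.59, adjusted p = 0.0203) rose, so 1 member of the cluster was nearly silent and 3 were up. With the block 3 gamma protocadherins rose and 2 fell. Pcdhgb7 did not pass when replicate 1 or 3 labelled Chd5-/- or replicate 1 or 3 of wild type was left out (adjusted p = 0.056 to 0.0887). Pcdhga6 did not pass when replicate 1 or 3 labelled Chd5-/- or replicate 1, 2 or 3 of wild type was left out (adjusted p = 0.0516 to 0.0896).

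Of 20 other cadherins and protocadherins 3 rose (15%, against 2.74% of all genes tested). Cdh19, a cadherin gene of glial precursors and Schwann cell precursors, had 12.8, 11.7 and 13.8 CPM in libraries labelled Chd5-/- and 0.305, 0.674 and 0.852 CPM in wild type. Cdh19 rose (log2 fold change 4.36 ± 0.67, adjusted p = 0.00677). Cdh11 had 38, 1.8 and 38 CPM in libraries labelled Chd5-/- and 1.53, 0.809 and 1.65 CPM in wild type (log2 fold change 4.28 ± 0.94, adjusted p = 0.0358), with a difference of 3.95 and 3.88 on the log2(CPM + 1) scale in pairs 1 and 3 and 0.63 in pair 2. Cdh10 rose as well (log2 fold change 1.88 ± 0.36, adjusted p = 0.0203). With the block 3 rose and 6 fell, the falls including Cdh20 (-0.84, adjusted p = 0.0195) and Pcdh10 (-0.76, adjusted p = 0.0194). Cdh11 did not pass when replicate 1 or 3 labelled Chd5-/- or replicate 1, 2 or 3 of wild type was left out (adjusted p = 0.11 to 0.137). Cdh10 did not pass when replicate 1, 2 or 3 labelled Chd5-/- or replicate 1 or 3 of wild type was left out (adjusted p = 0.0513 to 0.0818).

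Of 37 integrin, laminin and other matrix genes, 4 rose and 3 fell (18.9%, against 2.74% of all genes tested), with a median of -0.61. Lama4, the laminin alpha-4 gene, had 40.3, 45.5 and 38.2 CPM in libraries labelled Chd5-/- and 3.72, 5.46 and 4.32 CPM in wild type. Lama4 rose (log2 fold change 3.2 ± 0.22, adjusted p = 5.78e-05). Tnr, which encodes tenascin-R of perineuronal matrix, had 127, 77.8 and 121 CPM in libraries labelled Chd5-/- and 10.4, 5.46 and 11 CPM in wild type. Tnr rose (log2 fold change 3.6 ± 0.40, adjusted p = 0.00112). The integrin gene Itga3 (log2 fold change 1.54 ± 0.30, adjusted p = 0.0203) and the proteoglycan gene Acan (log2 fold change 4.42 ± 0.94, adjusted p = 0.0308; 3.99, adjusted p = 0.0562 with the block) also rose. Besides Edil3, the elastic fibre genes Mfap4 and Fbln1 fell. Mfap4 had 0.743, 2.27 and 0.505 CPM in libraries labelled Chd5-/- and 18.7, 28.1 and 17.6 CPM in wild type. Mfap4 fell (log2 fold change -4.19 ± 0.69, adjusted p = 0.0154). Fbln1 had 8.67, 39.9 and 9.9 CPM in libraries labelled Chd5-/- and 115, 462 and 112 CPM in wild type. Fbln1 fell (log2 fold change -3.56 ± 0.75, adjusted p = 0.03). Itga3 did not pass when replicate 1 or 3 labelled Chd5-/- or replicate 3 of wild type was left out (adjusted p = 0.0765 to 0.0843). Acan did not pass when replicate 2 labelled Chd5-/- or replicate 1, 2 or 3 of wild type was left out (adjusted p = 0.0583 to 0.123). Mfap4 did not pass when replicate 1 or 3 labelled Chd5-/- was left out (adjusted p = 0.0613 to 0.0779). Fbln1 did not pass when replicate 1 or 3 labelled Chd5-/- or replicate 2 of wild type was left out (adjusted p = 0.0652 to 0.134).

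With the block 5 matrix genes rose and 10 fell, where 8.22% of all genes tested passed. Among the falls was Fbln2, an elastic fibre gene, at 42.6, 627 and 40.4 CPM in libraries labelled Chd5-/-, against 278, 4131 and 278 CPM in wild type. Replicate 2 was far above the others in each genotype, yet the difference on the log2(CPM + 1) scale was -2.68, -2.72 and -2.75 in pairs 1, 2 and 3 (-2.74, adjusted p = 0.00352 with the block, -2.72, adjusted p = 0.423 without it). Lama5, the laminin alpha-5 gene, had 115, 508 and 112 CPM in libraries labelled Chd5-/-, against 324, 1332 and 322 CPM in wild type. Lama5 fell with the block (-1.47, adjusted p = 0.00771) and did not pass without it (-1.43, adjusted p = 0.476). Of 27 collagens 1 rose, Col5a2, a fibrillar collagen gene, at 41.7, 42.1 and 38.7 CPM in libraries labelled Chd5-/- and 5.56, 5.26 and 5.79 CPM in wild type (log2 fold change 2.88 ± 0.42, adjusted p = 0.00552), with little spread within either group; with the block 3 collagens rose and 1 fell.

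The share that passed was 11.5% in the Wnt list, 8.33% in the Hedgehog list and 7.41% in the BMP and TGF-beta list. It was 0% in the Notch list, against 2.74% of all genes tested. Of 26 Wnt receptors, antagonists and targets, 1 rose and 2 fell, and with the block 4 rose and 5 fell. Sfrp1, a secreted Wnt antagonist gene, had 7.62, 5.21 and 5.74 CPM in libraries labelled Chd5-/- and 0.488, 0.202 and 0.284 CPM in wild type. Sfrp1 rose (log2 fold change 4.21 ± 0.62, adjusted p = 0.00552). Fzd6, a Frizzled receptor gene, had 0.495, 1.07 and 0.631 CPM in libraries labelled Chd5-/- and 8.18, 9.04 and 8.41 CPM in wild type. Fzd6 fell (log2 fold change -3.54 ± 0.54, adjusted p = 0.00618). Tpbg is given above. With the block, the receptor gene Fzd10 rose (4.27, adjusted p = 0.014), with 43.5 CPM in replicate 2 labelled Chd5-/- and 2.66 CPM or more in the others, against 1.55 CPM or less in wild type.

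Of 12 Hedgehog pathway genes 1 rose, Hhip, which encodes a binding protein that antagonises Hedgehog ligands, at 1.36, 16.9 and 1.7 CPM in libraries labelled Chd5-/- and 0.0611, 0.472 and 0.0568 CPM in wild type. Hhip rose (log2 fold change 5.07 ± 1.15, adjusted p = 0.0417). Of 27 BMP and TGF-beta genes 2 fell, Tgfb1 and Chrd. The ligand gene Tgfb1 had 0.433, 0.868 and 0.442 CPM in libraries labelled Chd5-/- and 3.18, 5.33 and 3.52 CPM in wild type. Tgfb1 fell (log2 fold change -2.77 ± 0.53, adjusted p = 0.0182). Chrd, which encodes the BMP antagonist chordin, had 6.94, 2.8 and 5.8 CPM in libraries labelled Chd5-/- and 20, 14.8 and 20.4 CPM in wild type. Chrd fell (log2 fold change -1.83 ± 0.39, adjusted p = 0.0307). The receptor gene Tgfbr2 stood at 12.7, 27.9 and 13.8 CPM in libraries labelled Chd5-/- and 47, 162 and 48.3 CPM in wild type and passed only with the block (-2.09, adjusted p = 0.0109; without it -2.24, adjusted p = 0.0621). With the block 1 Hedgehog gene rose and 2 fell, and 1 BMP and TGF-beta gene rose and 3 fell. Hhip did not pass when replicate 2 labelled Chd5-/- or replicate 1 or 3 of wild type was left out (adjusted p = 0.087 to 0.177). Tgfb1 did not pass when replicate 1 or 3 labelled Chd5-/- was left out (adjusted p = 0.0987 to 0.0996). Chrd did not pass when replicate 1, 2 or 3 labelled Chd5-/- or replicate 1 or 3 of wild type was left out (adjusted p = 0.0605 to 0.109).

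Of 21 Notch pathway genes 0 passed in edgeR, where 5 had an unadjusted p under 0.05, while DESeq2 called 3 lower, limma-voom called 0, and 2 fell with the block. The ligand genes Jag1 and Dll4 were those 2. Jag1 had 38.3, 92.3 and 39.5 CPM in libraries labelled Chd5-/-, against 145, 291 and 141 CPM in wild type. Jag1 fell with the block (-1.8, adjusted p = 0.0062) and did not pass without it (-1.76, adjusted p = 0.0836). Dll4 had 3.41, 0.668 and 2.9 CPM in libraries labelled Chd5-/-, against 31.4, 1.69 and 34.9 CPM in wild type (-3.05, adjusted p = 0.0261 with the block, -3.28, adjusted p = 0.106 without it), so it was near 0 in replicate 2 of both genotypes. Of 48 axon guidance genes 1 rose and 1 fell. Nrp2, a semaphorin and VEGF receptor gene, had 12.9, 4.81 and 13.9 CPM in libraries labelled Chd5-/- and 85.5, 64.3 and 82.2 CPM in wild type. Nrp2 fell (log2 fold change -2.87 ± 0.44, adjusted p = 0.0063). Plxdc2, a plexin-domain receptor gene, had 11, 7.08 and 12.9 CPM in libraries labelled Chd5-/- and 0.366, 0.135 and 0.682 CPM in wild type. Plxdc2 rose (log2 fold change 4.66 ± 0.69, adjusted p = 0.00552). With the block 5 rose and 4 fell, among them the netrin receptor gene Unc5c, higher, at 11.6, 43.6 and 11.9 CPM in libraries labelled Chd5-/-, against 1.83, 6.2 and 2.04 CPM in wild type (2.68, adjusted p = 0.00578).

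Among p53 targets, the cell cycle inhibitor gene Cdkn1a and a few others were higher. Of 23 genes of this list 3 rose and 1 fell (17.4%, against 2.74% of all genes tested), with a median of 0.70. With the block 9 rose and 2 fell, where 8.22% of all genes tested passed. Cdkn1a (ENSMUSG00000023067, chromosome 17, 29090976 to 29100727), which encodes p21, had 106, 153 and 114 CPM in libraries labelled Chd5-/- and 8.91, 15.2 and 9.71 CPM in wild type. Cdkn1a rose (log2 fold change 3.46 ± 0.29, adjusted p = 0.000162). Trp53cor1, a long noncoding RNA gene beside it on chromosome 17 that p53 is known to induce, was picked after its values were seen and had 6.87, 8.61 and 7.63 CPM in libraries labelled Chd5-/- and 0.672, 1.15 and 0.454 CPM in wild type. Trp53cor1 rose (log2 fold change 3.34 ± 0.39, adjusted p = 0.0012). Ccng1, which encodes cyclin G1, had 119.7, 99.3 and 119 CPM in libraries labelled Chd5-/- and 28.5, 7.15 and 28.4 CPM in wild type. Ccng1 rose (log2 fold change 2.4 ± 0.48, adjusted p = 0.0232). Phlda3, an inhibitor of AKT, had 36.2, 28.6 and 37.4 CPM in libraries labelled Chd5-/- and 7.33, 4.59 and 7.44 CPM in wild type. Phlda3 rose (log2 fold change 2.4 ± 0.46, adjusted p = 0.0183). Plk3, a stress kinase gene, fell (log2 fold change -1.36 ± 0.30, adjusted p = 0.0368). The other genes higher with the block included Zmat3 (0.92, adjusted p = 0.0392), Eda2r (1.57, adjusted p = 0.0261) and Pmaip1 (1.38, adjusted p = 0.0311). Ccng1 did not pass when replicate 1 or 3 labelled Chd5-/- or replicate 1 or 3 of wild type was left out (adjusted p = 0.0575 to 0.0777). Phlda3 and Plk3 did not pass when replicate 1 or 3 labelled Chd5-/- or replicate 1, 2 or 3 of wild type was left out (adjusted p up to 0.0689 and 0.168).

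Of the libraries labelled Chd5-/-, Cdkn1a was highest in replicate 2, in which Mki67 and Top2a were high too. Of 21 CDK inhibitors, G1 cyclins and pocket proteins 2 rose, Cdkn1a and the imprinted inhibitor gene Cdkn1c, at 0.467 to 0.743 CPM in libraries labelled Chd5-/- and 1 read in all of wild type (30-fold higher, 95% counting interval 5.38 to 1180, adjusted p = 0.0223; 4.48, adjusted p = 0.0514 with the block). Of 16 BCL2 family genes 1 fell, the BH3-only gene Hrk (log2 fold change -1.58 ± 0.37, adjusted p = 0.0459; -1.54, adjusted p = 0.0802 with the block, in which 1 other member, Pmaip1, rose). Of 25 DNA replication genes 0 passed in edgeR, limma-voom or DESeq2, which gave 14 of them an adjusted p, and 0 had an unadjusted p under 0.05 in edgeR. Of 25 mitosis genes limma-voom and edgeR called 0, DESeq2 gave 0 of them an adjusted p, and edgeR gave 0 an unadjusted p under 0.05. With the block 2 genes of the CDK inhibitor and cyclin list rose, Cdkn1a and 1 that had not passed without it, and 1 fell, and 1 replication gene fell. Cdkn1c did not pass when replicate 1 or 3 labelled Chd5-/- or replicate 1 or 2 of wild type was left out (adjusted p = 0.0518 to 0.0975). Hrk did not pass when replicate 1, 2 or 3 labelled Chd5-/- or replicate 1 or 3 of wild type was left out (adjusted p = 0.0762 to 0.203).

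Interferon-inducible and antigen presentation genes were far higher in 1 library labelled Chd5-/-. Type I interferon signals through transcription factors, IRF9 among them, which bind an element in the promoters of their targets and raise antiviral proteins and the peptide loading genes of MHC class I. Of 29 genes tested 3 rose and 0 fell (10.3%, against 2.74% of all genes tested), and 5 rose and 0 fell with the block. Their median was 1.39. It was 0.30 and 0.17 in pairs 1 and 3, 2.24 in pair 2, and 0.45 with replicate 2 of both genotypes omitted. Ifit2, an antiviral RNA-binding protein gene, had 9.47, 19.6 and 8.45 CPM in libraries labelled Chd5-/- and 0.672, 0.944 and 0.738 CPM in wild type. Ifit2 rose (log2 fold change 3.98 ± 0.72, adjusted p = 0.0151). Tap1, a subunit gene of the peptide transporter, had 17.9, 72 and 15.6 CPM in libraries labelled Chd5-/- and 4.09, 6.47 and 4.71 CPM in wild type. Tap1 rose (log2 fold change 2.79 ± 0.53, adjusted p = 0.019). Tap2 had 14.7, 46.5 and 14.5 CPM in libraries labelled Chd5-/- and 4.95, 7.21 and 4.09 CPM in wild type. Tap2 rose (log2 fold change 2.22 ± 0.47, adjusted p = 0.0314). These 3 were higher in every pair. Ifit2 and Tap1 did not pass when replicate 1 or 3 of wild type was left out (adjusted p up to 0.0759 and 0.093). Tap2 did not pass when replicate 2 labelled Chd5-/- or replicate 1 or 3 of wild type was left out (adjusted p = 0.058 to 0.145).

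Several members differed far more in pair 2 than in the other pairs, with 1 library a side and no test. Irf7, the factor that amplifies the response, had 3.41, 61.6 and 2.9 CPM in libraries labelled Chd5-/-, against 1.16, 2.23 and 1.31 CPM in wild type. Ifit3 had 2.54, 43 and 2.96 CPM in libraries labelled Chd5-/-, against 0.733, 0.674 and 0.966 CPM in wild type, and Ifit1 had 4.71, 53.8 and 4.29 CPM in libraries labelled Chd5-/-, against 1.83, 2.29 and 1.48 CPM in wild type. Oasl2, Usp18 and Ifi44, antiviral and feedback genes chosen after their values were seen, stood at 117, 106 and 84.5 CPM in replicate 2 labelled Chd5-/-, against 7.89, 8.16 and 6.61 CPM in replicate 2 of wild type. In pairs 1 and 3 the 2 libraries lay within 0.50 of each other for these 3 genes on the log2(CPM + 1) scale. In pair 2 all 29 genes were higher in the library labelled Chd5-/-, against 20 and 19 in pairs 1 and 3. The share of all genes tested that were higher was not counted for any pair. Pair 2 also had more genes at least 2-fold apart, 2144, against 1129 and 1137 in pairs 1 and 3. Isg15, a ubiquitin-like antiviral gene, was lower in pairs 1 and 3 and higher in pair 2, at 1.36, 25.6 and 1.58 CPM in libraries labelled Chd5-/-, against 4.76, 7.55 and 5.06 CPM in wild type.

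The promoters of Ifit1 and Ifit3 are shown because both genes moved together in pair 2. They are RefSeq windows of GRCm38.p6, 250 bases before to 50 after the RefSeq start, 5′ to 3′ on the gene's strand, with matches to the letters of the interferon-stimulated response element, GAAA repeated after 2 bases of any kind, on either strand (TTTC repeated likewise on the other), in capitals.
Ifit1, chromosome 19, 34640639 to 34640938, plus strand: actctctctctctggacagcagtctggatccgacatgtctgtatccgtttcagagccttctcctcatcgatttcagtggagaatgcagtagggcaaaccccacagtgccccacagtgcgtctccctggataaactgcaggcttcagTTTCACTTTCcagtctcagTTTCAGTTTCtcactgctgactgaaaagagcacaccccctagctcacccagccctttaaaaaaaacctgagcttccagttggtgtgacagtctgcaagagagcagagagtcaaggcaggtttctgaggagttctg
Ifit3, chromosome 19, 34583279 to 34583578, plus strand: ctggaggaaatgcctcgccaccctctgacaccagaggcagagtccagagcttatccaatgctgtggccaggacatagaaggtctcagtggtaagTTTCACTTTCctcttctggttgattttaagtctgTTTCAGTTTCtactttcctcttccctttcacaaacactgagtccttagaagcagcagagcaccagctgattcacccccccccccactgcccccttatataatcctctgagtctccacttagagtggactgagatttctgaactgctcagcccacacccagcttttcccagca
Each window holds 2 matches. The letters occur in 9 of the 23 genes of the list that have a window (39.1%), against 3.56% of the 11042 genes tested with a window. The list was drawn up from known interferon and antigen presentation genes, so its high share is no result of these data. Among genes with a window, the letters occur in 2.48% of those that passed as higher and 7.26% of those that passed as lower. A match is a description of the letters and not a bound site.

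Cholesterol synthesis genes, which SREBP2 raises when sterols are short, had a lower median in pair 2 than in the other pairs. Of 22 tested 0 passed in edgeR, limma-voom or DESeq2, which gave adjusted p-values for 13, and 0 had an unadjusted p under 0.05 in edgeR; 0 rose and 4 fell with the block. The median was -0.68, and -0.29, -0.80 and -0.30 in pairs 1, 2 and 3, where 3, 3 and 2 of the 22 were higher. No share of all genes tested that were higher in each pair was counted to set beside these. Insig1, a sterol sensor gene, had 67.3, 242 and 71.5 CPM in libraries labelled Chd5-/-, against 129, 531 and 123 CPM in wild type (-0.95, adjusted p = 0.0177 with the block). Sqle, the squalene epoxidase gene, had 123, 428 and 123 CPM in libraries labelled Chd5-/-, against 216, 1432 and 215 CPM in wild type and did not pass either way (-1.12, adjusted p = 0.0517 with the block).

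The 13 mitochondrial mRNAs had medians of -0.14, -0.88 and -0.17 in pairs 1, 2 and 3, and 0 passed in edgeR, DESeq2 or limma-voom (1 at an unadjusted p under 0.05 in edgeR). Mitochondrial genes took 0.932%, 1.02% and 0.952% of reads in libraries labelled Chd5-/-, against 1.10%, 1.63% and 1.10% in wild type. Of 19 glycolysis genes 1 fell, the neuronal enolase gene Eno2 (log2 fold change -2.07 ± 0.43, adjusted p = 0.0291), at 0.619, 1.2 and 0.757 CPM in libraries labelled Chd5-/- and 2.99, 4.05 and 3.86 CPM in wild type. Among 21 ATF4 stress and amino acid genes 0 passed in edgeR, DESeq2 or limma-voom, 1 had an unadjusted p under 0.05 in edgeR, and 3 rose with the block, among them the cystine transporter gene Slc7a11, at 73.6, 181 and 75.1 CPM in libraries labelled Chd5-/-, against 19.4, 57.5 and 18.2 CPM in wild type (1.87, adjusted p = 0.00681). With the block 2 glycolysis genes rose and 1 fell, and 1 mitochondrial mRNA fell. Eno2 did not pass when replicate 1 or 3 labelled Chd5-/- or replicate 1, 2 or 3 of wild type was left out (adjusted p = 0.0511 to 0.139).

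**Figure D3:**
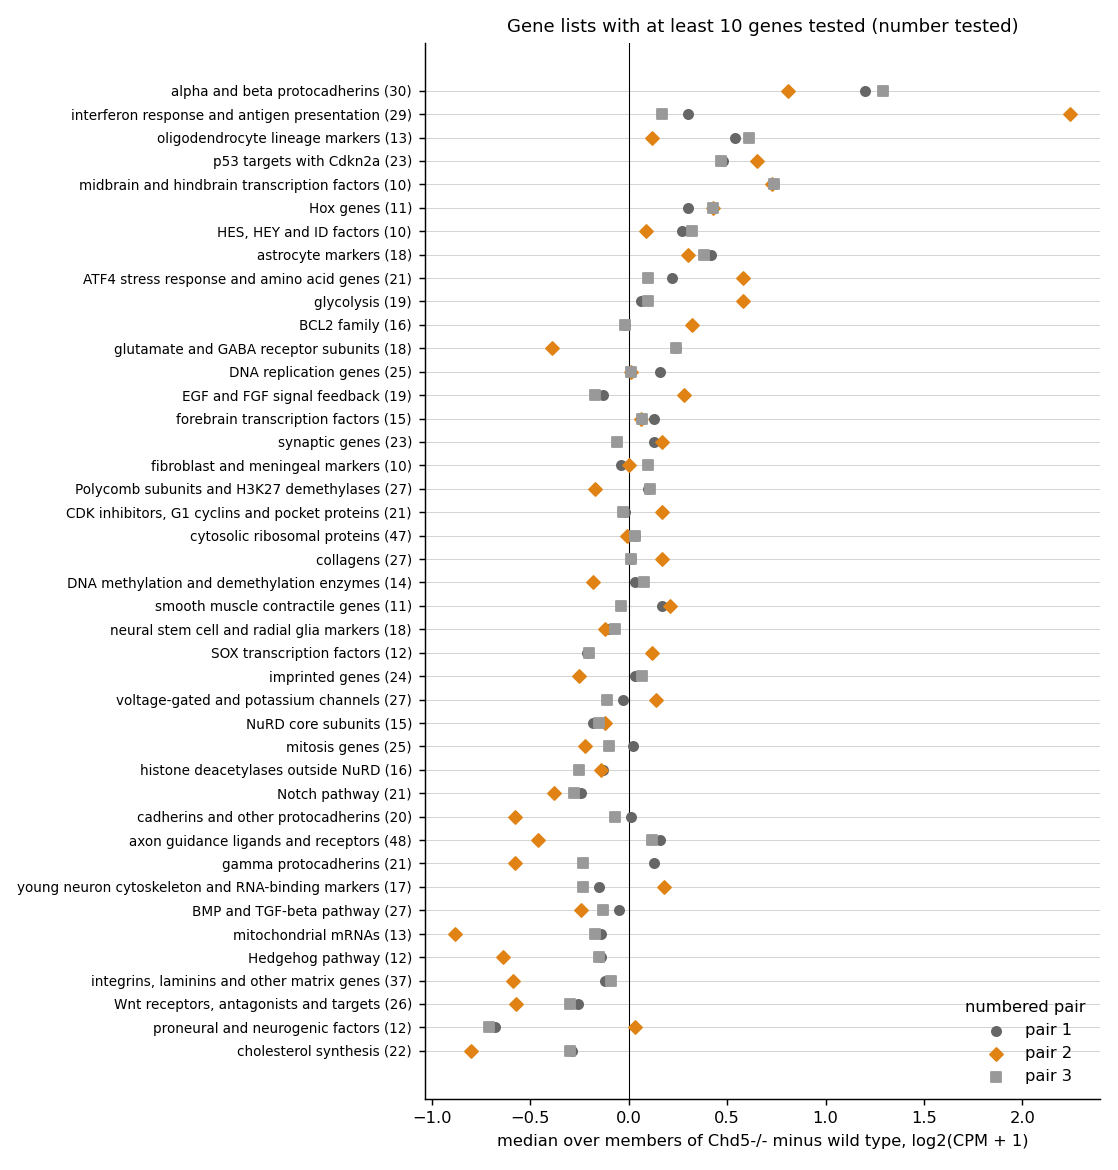
Median difference by numbered pair for the gene lists with at least 10 genes tested. Each row is 1 list with its number of genes, the x axis is the median over its members of Chd5-/- minus wild type in log2(CPM + 1), and symbols mark pairs 1, 2 and 3; pair 2 stands at 2.24 for the interferon list and -0.80 for cholesterol synthesis, while the 3 pairs fall together for midbrain and hindbrain factors.

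Of the chromatin genes listed, Hdac11 was the 1 that passed. Of 15 NuRD core subunits 0 passed in edgeR and limma-voom, while 2 lay under an unadjusted p of 0.05 in edgeR and DESeq2 called 1 higher and 1 lower. With the block 1 fell, the remodeller gene Chd3, at 64.3, 53.9 and 64.1 CPM in libraries labelled Chd5-/-, against 106, 107 and 106 CPM in wild type. Chd3 fell with the block (-0.81, adjusted p = 0.0205) and did not pass without it (-0.81, adjusted p = 0.0672). Of 9 chromodomain helicases 0 passed in edgeR and limma-voom, while 2 lay under an unadjusted p of 0.05 in edgeR and DESeq2 called 1 lower; besides Chd3, Chd7 fell with the block (-0.86, adjusted p = 0.0157). Of the 16 histone deacetylases outside NuRD, Hdac11 fell, and with the block Sirt6, a histone deacylase gene, and Hdac7 fell too. Sirt6 had 7.86, 7.01 and 8.14 CPM in libraries labelled Chd5-/-, against 24.6, 20.5 and 25.6 CPM in wild type. Sirt6 fell with the block (-1.62, adjusted p = 0.00889) and did not pass without it (-1.62, adjusted p = 0.0511). Hdac7 had 101, 56.6 and 102 CPM in libraries labelled Chd5-/-, against 325, 130.3 and 314 CPM in wild type. Hdac7 fell with the block (-1.51, adjusted p = 0.0128) and did not pass without it (-1.57, adjusted p = 0.0757). Of 27 Polycomb genes 0 passed in edgeR or limma-voom, while 2 lay under an unadjusted p of 0.05 in edgeR and DESeq2 called 1 higher. Of 14 DNA methylation genes 0 passed in edgeR, limma-voom or DESeq2, and 1 had an unadjusted p under 0.05 in edgeR. Of 24 imprinted genes 2 rose, Cdkn1c and Sgce (log2 fold change 1.24 ± 0.21, adjusted p = 0.011), at 32.2, 40.3 and 33.3 CPM in libraries labelled Chd5-/- and 15.5, 16.7 and 12.7 CPM in wild type. With the block 1 Polycomb gene rose, and 2 imprinted genes rose and 4 fell. Sgce did not pass when replicate 1 or 3 of wild type was left out (adjusted p = 0.0517 to 0.0638).

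Of the lists of markers of cells outside the neural lineages, each had 0 to 2 members that passed. These lists were short, so 1 gene moved a share far. The shares were 20% for fibroblast, ependymal and neural crest markers, 16.7% for endothelial and 25% for pluripotency markers. Smooth muscle and microglial markers had 0%, against 2.74% of all genes tested. The angiopoietin receptor gene Tek fell, at 0.433, 0.467 and 0.189 CPM in libraries labelled Chd5-/- and 7.51, 7.01 and 6.42 CPM in wild type (log2 fold change -4.24 ± 0.64, adjusted p = 0.00618), the only 1 of 6 endothelial and pericyte markers tested that passed, and Cdh5 and Pdgfrb were at or near 0. Of 10 fibroblast and meningeal markers 2 rose, Pdgfra, given above, and Twist1, a mesenchymal factor gene, at 1.8, 2.0 and 1.77 CPM in libraries labelled Chd5-/- and 0.672, 0.337 and 0.341 CPM in wild type. Twist1 rose (log2 fold change 2.02 ± 0.44, adjusted p = 0.0349). The pluripotency gene Esrrb rose, at 0.946 to 2.27 CPM in libraries labelled Chd5-/- and 0.227 to 0.472 CPM in wild type (log2 fold change 2.14 ± 0.48, adjusted p = 0.0376). Xist, the X-inactivation RNA gene, had 446, 602 and 438 CPM in libraries labelled Chd5-/-, against 940.2, 2199 and 925 CPM in wild type and passed only with the block (-1.34, adjusted p = 0.0275; without it -1.45, adjusted p = 0.253). The Y-linked genes Ddx3y and Eif2s3y had 2 reads each in libraries labelled Chd5-/- and 0 in wild type, and Kdm5d stood at 2.23, 1.14 and 2.14 CPM in libraries labelled Chd5-/- and 1.89, 2.56 and 1.87 CPM in wild type. Of 5 ependymal and choroid plexus markers, Otx2 rose and 0 passed with the block; of 5 neural crest and Schwann markers, Cdh19 rose, and 1 rose and 1 fell with the block. Cytosolic ribosomal proteins (47 genes), HES, HEY and ID factors (10), EGF and FGF feedback genes (19), SOX factors (12), smooth muscle genes (11), GABAergic genes (5) and microglial markers (3) had 0 members that passed in edgeR or limma-voom, and 0, 0, 1, 2, 1, 0 and 0 members with an unadjusted p under 0.05. DESeq2 called 1 SOX factor higher and 1 smooth muscle gene lower among them, and with the block 2 HES, HEY and ID factors, 1 feedback gene and 1 SOX factor rose and 1 of each fell. Twist1 did not pass when replicate 1, 2 or 3 labelled Chd5-/- or replicate 1, 2 or 3 of wild type was left out (adjusted p = 0.0562 to 0.167). Esrrb did not pass when replicate 1, 2 or 3 labelled Chd5-/- or replicate 1 or 3 of wild type was left out (adjusted p = 0.0636 to 0.173).

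Further genes passed with the block alone, among them some whose level also changed between replicates. Of these 935 genes, Chl1, a neural cell adhesion gene, had 30.7, 188 and 33.6 CPM in libraries labelled Chd5-/-, against 3.79, 19.8 and 3.58 CPM in wild type. Chl1 rose with the block (3.17, adjusted p = 0.00352) and did not pass without it (3.22, adjusted p = 0.076). Ndrg2, a differentiation-linked gene of astrocytes, had 109, 4.34 and 110.5 CPM in libraries labelled Chd5-/-, against 10.1, 0.135 and 10 CPM in wild type. Ndrg2 rose with the block (3.54, adjusted p = 0.0062) and did not pass without it (3.46, adjusted p = 0.216). Shisa9, an AMPA receptor auxiliary subunit gene, had 41.1, 0.0668 and 42.4 CPM in libraries labelled Chd5-/-, against 6.53, 0 and 6.02 CPM in wild type (2.72, adjusted p = 0.00688; without the block 2.73, adjusted p = 0.6), so its difference lay in pairs 1 and 3 and both libraries of pair 2 were at or near 0. Tgfa, an EGF receptor ligand gene (2.08, adjusted p = 0.00844), and Zfp57, a guardian of imprints which fell (-1.93, adjusted p = 0.00578), differed in each pair, as did Astn2 (-1.91, adjusted p = 0.00578), an astrotactin gene. With the block the fit has 2 residual degrees of freedom.

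Pair 2 also held differences of its own, with 1 library a side and no test. In 67 genes its 2 libraries lay at least 4-fold apart on the log2(CPM + 1) scale. Those of pairs 1 and 3 lay within 0.50 of each other in these genes. Of the 67, 43 were higher and 24 lower in the library labelled Chd5-/-. By edgeR 0 of the 67 passed, which largely follows from picking genes with little difference in pairs 1 and 3. Named after their values were seen, Tnc, the tenascin-C gene, had 312, 749.6 and 316 CPM in libraries labelled Chd5-/-, against 424, 5978 and 410.3 CPM in wild type, Tfrc, the transferrin receptor gene, had 57.1, 111 and 59.7 CPM in libraries labelled Chd5-/-, against 73.6, 608 and 74.3 CPM in wild type, and the integrin gene Itga9 had 20.2, 29 and 19.5 CPM in libraries labelled Chd5-/-, against 14.5, 171 and 16.2 CPM in wild type. All 3 were high in replicate 2 of wild type alone. Pairs 1, 2 and 3 had 1129, 2144 and 1137 genes at least 2-fold apart, and 544 genes differed at least 2-fold the same way in all 3 (307 higher, 1.91%, and 237 lower, 1.48%).

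**Figure D4:**
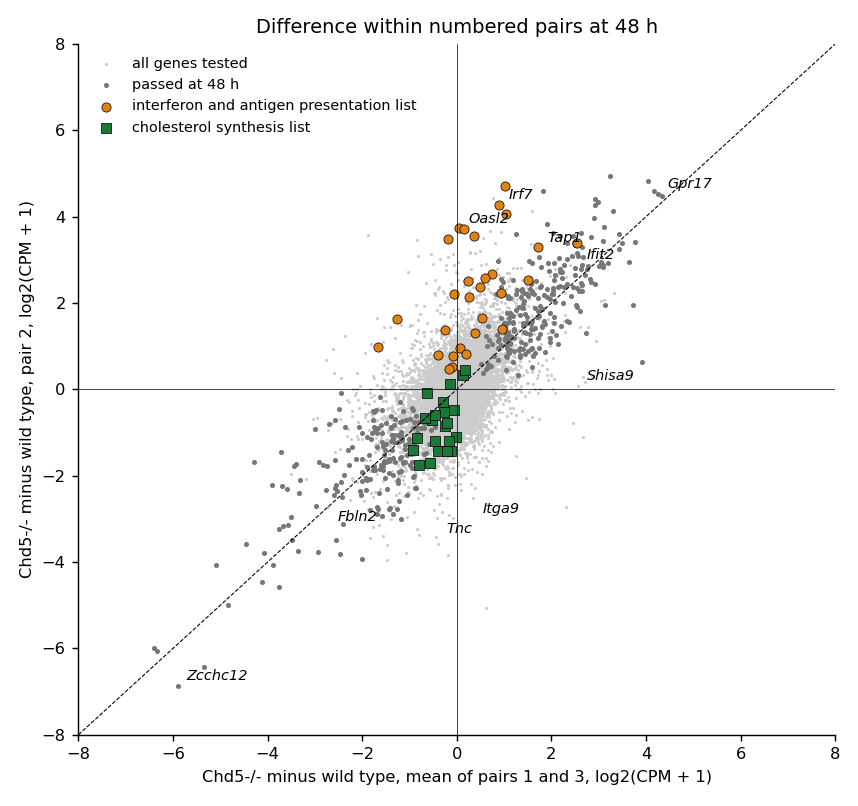
Chd5-/- minus wild type in pair 2 (y axis) against the mean of pairs 1 and 3 (x axis), both in log2(CPM + 1). Small points are all genes tested, grey points the 440 that passed, circles the interferon list and squares the cholesterol list; many interferon genes lie above 1 on the y axis and near 0 on the x axis, and genes such as Gpr17 and Zcchc12 lie near the dashed line of equal difference.

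The same contrast was read at 3 h in the other 6 libraries. There 1077 genes passed (6.71%). Of the 440, 399 had the same sign at 3 h. How many of all genes tested had the same sign at both times was not counted, so the 399 has no share beside it. Of the 440, 251 passed at both times in the same direction (144 higher and 107 lower), 57.0% of those at 48 h and 23.3% of those at 3 h. The 57.0% stands beside the 6.71% of all genes tested that passed at 3 h in either direction. The median size over the 440 was 2.79 at 48 h and 1.96 at 3 h on the log2 scale. In wild type at 3 h, ribosomal protein genes took 16.3% of the reads of replicate 1, and 4.28% and 4.43% in the other replicates, so the libraries of 3 h were uneven too. With that library and replicate 2 of both genotypes at 48 h omitted, 7645 of 16043 genes passed at 48 h, all 440 among them. Of these, 3856 passed at both times in the same direction. Each 48 h group then held replicates 1 and 3 alone, which lay close together (chi-square per gene 1.79 and 1.96). Such a small spread may be technical, so the 7645 add no support for the 440. The 251 became 129 and 120 without replicate 1 or 3 labelled Chd5-/- at 48 h, and 138 and 141 without replicate 1 or 3 of wild type.

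The genotype by time interaction passed for 37 genes (0.231%), 21 of them among the 440. The number of genes that passed both at 48 h and in the interaction, 21 with all libraries, was 7, 37 and 5 without replicate 1, 2 or 3 labelled Chd5-/- at 48 h, and 7, 48 and 7 without replicate 1, 2 or 3 of wild type. Col5a2, Ing4, Kcna2, Lrrtm1 and Twist1 passed at both times in opposite directions, and all 5 passed the interaction. Col5a2 was higher at 48 h, with -2.23 ± 0.44 at 3 h. Ing4, a subunit gene of a histone acetyltransferase complex, had 92.4, 56.7 and 94.6 CPM in libraries labelled Chd5-/- and 24.4, 16 and 21.5 CPM in wild type at 48 h (log2 fold change 1.97 ± 0.31, adjusted p = 0.00784) and -1.72 ± 0.31 at 3 h. Lrrtm1, a synaptic adhesion gene, had 7.49, 6.88 and 6.88 CPM in libraries labelled Chd5-/- and 2.93, 1.35 and 2.44 CPM in wild type at 48 h. Lrrtm1 rose (log2 fold change 1.65 ± 0.33, adjusted p = 0.022). Others differed at 48 h and little at 3 h: Adra1b, an adrenergic receptor gene, at 6.07, 6.68 and 6.88 CPM in libraries labelled Chd5-/- and 0.427, 0.405 and 0.568 CPM in wild type (log2 fold change 3.78 ± 0.43, adjusted p = 0.0012; at 3 h 0.05 ± 0.46), B3gat2, a glucuronyltransferase gene, at 19.9, 19.9 and 18.9 CPM in libraries labelled Chd5-/- and 2.56, 2.36 and 2.61 CPM in wild type (log2 fold change 2.96 ± 0.25, adjusted p = 0.000162; at 3 h -0.17 ± 0.27), and Dchs1, a giant cadherin gene of planar polarity, at 30.8, 19.8 and 35.3 CPM in libraries labelled Chd5-/- and 183, 179 and 174 CPM in wild type (log2 fold change -2.64 ± 0.26, adjusted p = 0.000616; at 3 h -0.30 ± 0.25). Insm1 was of this kind as well, with 0.72 ± 0.35 at 3 h. Nkx2-2, Ank3 and Ddit4l, an mTOR inhibitor gene, were higher at both times and further apart at 3 h. Lrrtm1 did not pass when replicate 1 or 3 labelled Chd5-/- or replicate 3 of wild type was left out (adjusted p = 0.0807 to 0.0908).

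**Figure D5:**
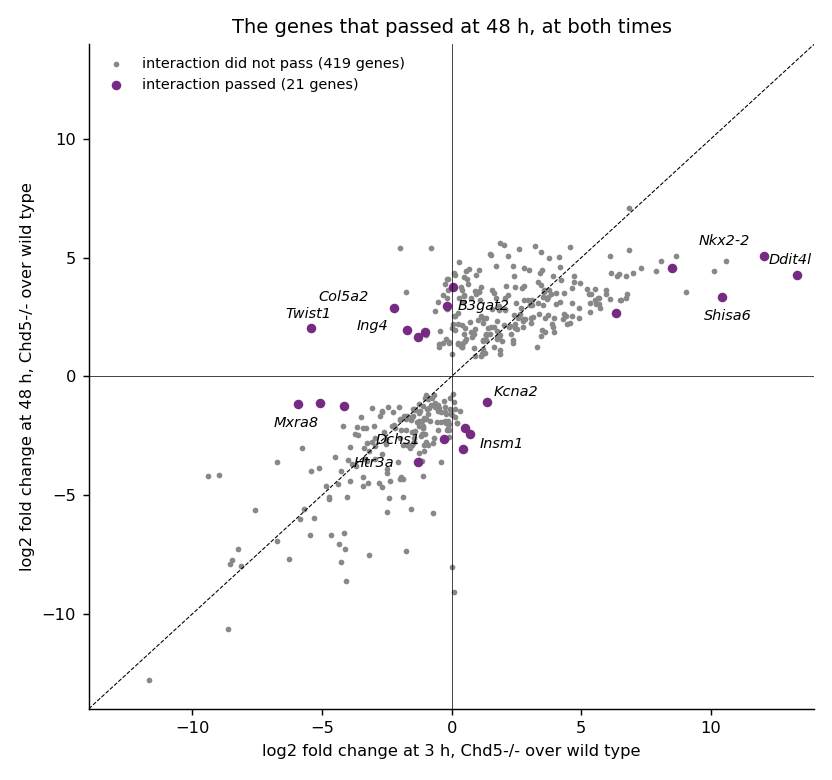
Log2 fold change of Chd5-/- over wild type at 3 h (x axis) and 48 h (y axis) for the 440 genes that passed at 48 h. Purple points are the 21 genes whose interaction passed and grey points the others; 399 of the 440 lie in the quadrants of equal sign, and the dashed line marks equal size.

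By position and kind, the 440 genes were spread over the genome. The share that passed ranged from 1.66% to 5.21% over chromosomes 1 to 19 and X. Within 10 Mb of Chd5 on chromosome 4, 6 of 154 genes tested passed (3.90%), among them Mxra8, a matrix remodelling gene, at 101, 67.6 and 101 CPM in libraries labelled Chd5-/- and 214, 166 and 218 CPM in wild type. Mxra8 fell (log2 fold change -1.15 ± 0.23, adjusted p = 0.0235). Plekhg5, a guanine nucleotide exchange factor gene, fell too, with 55.2, 38.8 and 53.7 CPM in libraries labelled Chd5-/- and 103, 160.0 and 106 CPM in wild type (log2 fold change -1.32 ± 0.23, adjusted p = 0.0125; -1.3, adjusted p = 0.0514 with the block). Protein-coding genes made up 93.2% of those that passed and 83% of those tested. Of 30 others, Fendrr, a long noncoding RNA gene, had 16.2, 22.4 and 13.9 CPM in libraries labelled Chd5-/- and 1.4, 1.01 and 1.08 CPM in wild type. Fendrr rose (log2 fold change 3.9 ± 0.45, adjusted p = 0.0012). Six3os1, antisense to Six3, whose reads may not be fully told apart from those of Six3, had 54.2, 35.1 and 55 CPM in libraries labelled Chd5-/- and 105, 100.4 and 109.5 CPM in wild type. Six3os1 fell (log2 fold change -1.13 ± 0.24, adjusted p = 0.0306). Mxra8 and Six3os1 did not pass when replicate 1, 2 or 3 labelled Chd5-/- or replicate 1 or 3 of wild type was left out (adjusted p up to 0.0954 and 0.108). Plekhg5 did not pass when replicate 3 labelled Chd5-/- was left out (adjusted p = 0.0502).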

How the data were processed

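RNA of 12 libraries was measured by stranded mRNA sequencing, of which the 6 of 48 h are compared here. The authors deposited 1 table of estimated counts and TPM per transcript for each library. The submitters' processing notes name Salmon; its version and its index: not given in the sources used here. The deposited estimated counts were summed to 54356 genes by the GENCODE M21 annotation (GRCm38) and rounded to whole numbers; 521 of 140658 transcripts had no match (0.135% to 0.181% of reads). The deposited TPM values were summed per gene for Chd5 and were otherwise not used. Salmon shares reads between transcripts by estimate, so overlapping and near-identical genes are uncertain.

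Genes were kept by filterByExpr (minimum count 10, minimum total 15), which left 16043. The main test was edgeR 4.0.16 (R 4.3.3), quasi-likelihood, with TMM scaling and 4 group means over all 12 libraries. It had 8 residual degrees of freedom and used Benjamini-Hochberg adjusted p under 0.05 over all genes tested. It was tested on simulated data with a capped spread and no replicate that stands apart. That simulation therefore does not cover the spread that replicate 2 brings here. DESeq2 1.42.0, limma-voom (limma 3.58.1), other scaling, filters, length offsets, single libraries left out and a replicate block (2 residual degrees of freedom within 48 h) were alternatives. Levels are TMM-scaled CPM. Counting intervals are exact, at 95%, cover counting error only, and use 3 counts over a group as the floor for a count of 0. Tables were made with Python 3.11.15 and pandas 2.3.3.

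Pairs and the block follow the replicate numbers in the sample titles, which the labels do not describe as a pairing. Same-numbered libraries at 48 h had correlated deviations from their group means (0.70, 0.79 and 0.70). Replicates 1 and 3 also correlated across numbers (0.71 and 0.72). The values set replicate 2 apart and do not tie replicate 1 or 3 to a partner. Named genes were the 15 higher and 15 lower with the largest change among separated genes of 5 CPM or more, up to 4 of each of 50 gene lists by p, 10 higher and 10 lower of 20 CPM or more that passed with the block alone, Chd5, Xist, Kdm5d, Mki67 and Top2a; others were named after their values were seen, or as members of a list that passed with the block. A few genes that fall under these rules are not reported here. The lists and the comparison were chosen with earlier results of these data known.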

Additional observations from a re-analysis of the deposited data

Results flagged for a closer look

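In 15 genes described above, the genotype difference at 48 h was unlike that at 3 h by a test of the difference itself (edgeR, genotype by time interaction, Benjamini-Hochberg adjusted). Values are log2 fold changes of Chd5-/- over wild type, and their difference is 48 h minus 3 h.

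The direction turned round in several. Twist1 differed by 7.45 between times (2.02 at 48 h and -5.43 at 3 h, adjusted p = 0.00248). At 3 h it had 2 reads over libraries labelled Chd5-/- and 89 over wild type, so the size of that value is uncertain. At 48 h Twist1 passed in none of the fits with 1 library left out. Col5a2 differed by 5.11 (2.88 and -2.23, adjusted p = 0.00572). Ing4 differed by 3.69 (1.97 and -1.72, adjusted p = 0.00572), Lrrtm1 by 2.97 (1.65 and -1.31, adjusted p = 0.0364) and Kcna2 by -2.41 (-1.06 and 1.35, adjusted p = 0.00476). Each of these 5 passed at both times.

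A larger difference at 48 h was seen in Adra1b, by 3.74 (3.78 and 0.05, adjusted p = 0.0451), B3gat2, by 3.13 (2.96 and -0.17, adjusted p = 0.00481), Dchs1, by -2.34 (-2.64 and -0.3, adjusted p = 0.0277), Htr3a, by -2.31 (-3.59 and -1.28, adjusted p = 0.0118), and Insm1, by -3.13 (-2.42 and 0.72, adjusted p = 0.0418). For Insm1, wild-type replicate 1 at 3 h, the library with a high share of ribosomal protein reads, stood below the other wild-type libraries of that time; its part in the result was not tested.

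A smaller difference at 48 h was seen in Mxra8, by 4.76 (-1.15 and -5.91, adjusted p = 0.000509), Six3os1, by 3.93 (-1.13 and -5.06, adjusted p = 0.00199), Sirt6, by 5.04 (-1.62 and -6.66, adjusted p = 0.00572), Ank3, by -3.94 (4.56 and 8.5, adjusted p = 0.0364), and Nkx2-2, by -6.95 (5.09 and 12.04, adjusted p = 0.00476). At 3 h, Nkx2-2 had 1683 reads over the libraries labelled Chd5-/- and 0 over wild type, so the size of its fitted value at 3 h depends on the prior count. Sirt6 had 11 reads over libraries labelled Chd5-/- and Ank3 12 over wild type, so their sizes at 3 h are uncertain too.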

How the results depend on the processing

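The counts of genes that passed at 48 h moved with several choices. DESeq2 called 920 (484 higher and 436 lower), 479 at both times and 149 with the interaction. With offsets for effective length, 266 passed (144 and 122), 143 at both times and 12 with the interaction. With the 48 h libraries alone and no block, 236 passed (132 and 104) and with the replicate block 1319 (649 and 670). The block changed no other call of a gene named with a fold change than those given with it above. With replicate 2 of both genotypes at 48 h omitted, 810 passed (400 and 410), 456 at both times and 209 with the interaction. With wild-type replicate 1 of 3 h omitted too, 7645 passed (4097 and 3548), 3856 at both times and 4546 with the interaction. In both cases each 48 h group held replicates 1 and 3 alone, whose small spread may be technical. Leaving out 1 library at a time gave 192 to 503 genes, 119 to 234 higher and 58 to 269 lower, 120 to 278 at both times and 5 to 48 with the interaction. RLE scaling, both other filters, limma-voom and the block over 12 libraries stayed within 1.5 times of the main counts.

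Of the genes of the text with a fold change, 89 passed and 40 did not, and 40 of those that passed did so under all 17 alternatives; 0 of the 89 changed direction under any. The fold change of Chd5 was 2.44 with length offsets, against -0.66. With 1 library left out at a time, Insig1 ranged over -1.92 to 0.01 and Sqle over -2.34 to 0.06, the highest of both without wild-type replicate 2. Depth limits genes under about 1 CPM, and a block fit on 2 residual degrees of freedom estimates spread poorly; the causes were not tested.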
